A study of Mus musculus with 17 samples.

Results

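Expression differences between progeny of the dorsal and of the lateral subventricular zone (SVZ) wall of newborn mice were compared between late and early times after the cells were marked. The measure was the wall difference, the log2 ratio of the dorsal over the lateral sample on the same array, and it was taken from 10 late arrays (4, 7 and 14 days) and 7 early arrays (8 hours, 1 day and 2 days). These are all 17 arrays of the series. The late arrays comprised 3 at 4 days, 3 at 7 days and 4 at 14 days, and the early arrays 2 at 8 hours, 3 at 1 day and 2 at 2 days. All samples came from CD1 mice at postnatal day 1, in which progenitors of 1 wall were marked by electroporation in the living animal, and the cells carrying green fluorescent protein (GFP) were later sorted by flow cytometry. The labels call the arrays of a time biological replicates and do not state how many animals made up a sample, so p-values measure the spread between these samples. The dorsal sample always carried the dye Cy3 and the lateral sample Cy5. Dye effects that are the same on every array shift a gene's wall difference but drop out of its change between times.

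The subventricular zone lines the lateral ventricles and keeps making neurons after birth. Its progenitors keep the regional identity of the embryonic territory they descend from: dorsal progenitors express transcription factors of the pallium, the source of the cortex, and lateral progenitors express homeobox factors of the subpallium, such as the Dlx and Gsx genes. Radial glia-like stem cells give rise to transit amplifying progenitors and then to neuroblasts, which migrate to the olfactory bulb and become mostly GABAergic interneurons. The comparison asks how the difference between both lineages changes as the marked cells move through these stages.

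The share of probes detected (well above background) ranged over 41.0 to 76.7% for dorsal and 56.4 to 79.4% for lateral samples, and no spot was saturated. The arrays sat on 5 slides. All 3 arrays of 1 day shared 1 slide and all 4 arrays of 14 days another, so that for these times the slide and the time cannot be told apart. The other 3 slides held late and early arrays together. Of 16 radial glia and stem cell genes measured, 12 to 15 were well above background in the late dorsal samples and 15 to 16 in the early dorsal ones, and 13 to 16 and 14 to 16 in the lateral samples. Of 15 neuroblast genes 12 to 15 were well above background in each late sample and 13 to 14 in each early one. In samples of many cells, fewer cells of a type and less RNA per cell cannot be told apart.

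The wall difference changed in 79 of 26414 genes tested (0.299%; adjusted p under 0.05). It was higher late in 13 genes (0.0492%) and lower late in 66 (0.25%). At an unadjusted p under 0.05, 1286 genes were higher (4.87%) and 1790 lower (6.78%). At the early times 920 of 26458 genes differed between the walls (3.48%), 520 of them higher in the dorsal samples (1.97%) and 400 lower (1.51%). At the late times limma called 0 of 26414 genes (0%), with 2152 at an unadjusted p under 0.05 (8.15%). These counts rest on loess: with median centring of each array 1663 genes differed early (364 higher and 1299 lower in the dorsal samples) and 4922 late (1441 higher and 3481 lower). All 66 genes that fell had been higher in the dorsal samples at the early times (62 called), and all 13 that rose had been lower there (12 called). The late difference was the smaller of both in size in 74 of the 79 genes, and in 44 of the 66 it lay between -0.5 and 0.5. Over all genes tested the median size was 0.222 late and 0.329 early. These sizes are of means over 10 late and 7 early arrays, and fewer arrays leave more noise in a mean. By single time the median size was 0.365, 0.473 and 0.417 at 8 hours, 1 day and 2 days. It was 0.300, 0.276 and 0.331 at 4, 7 and 14 days. The 79 genes were chosen by a contrast of these same values, so their counts give no independent support. The late and early arrays did not overlap in 24 of the 79 genes (6 late above and 18 late below), against 0.208 and 0.193% of all genes tested. The count of 79 moved with the arrays in the fit, from 16 without 8 hours replicate 1 to 138 without 1 day replicate 1. It was 10 with the scanner's processed signals and 6 with the deposited value table.

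**Figure D1:**
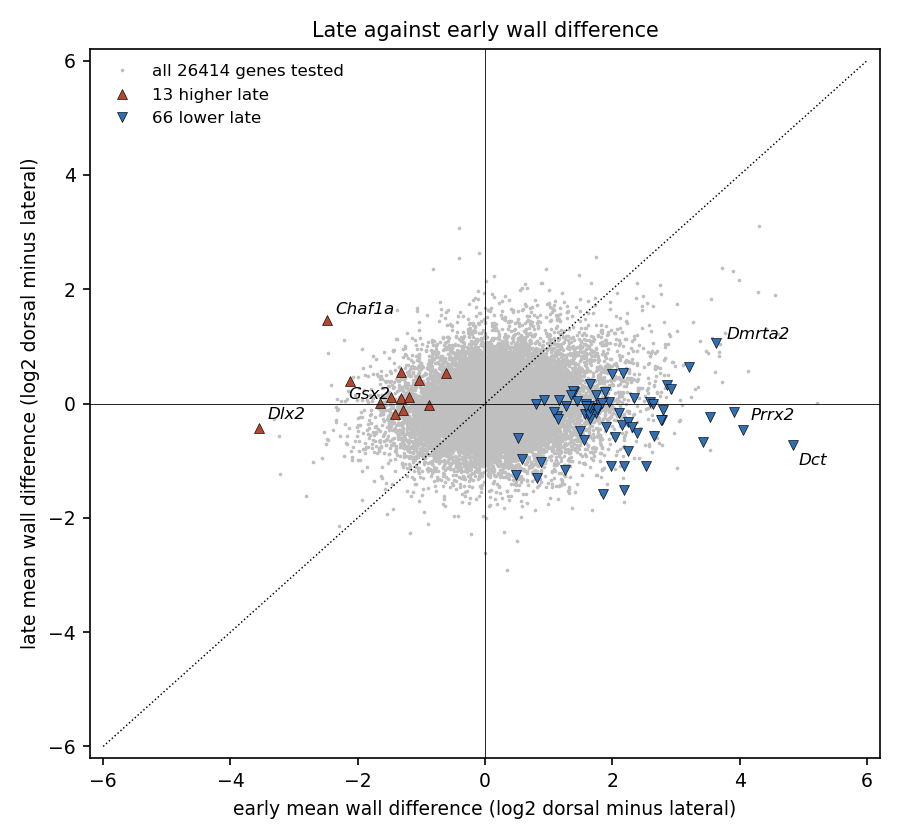
Mean wall difference of each gene at the late times (vertical axis, log2 dorsal minus lateral) against that at the early times (horizontal axis, same unit), with the dotted line where both are equal. The 66 genes that fell (downward triangles) lie right of 0 and the 13 that rose (upward triangles) left of 0, and most of them lie near 0 on the late axis.

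Dlx2, Prrx2 and Dct were the 3 among the 28 called genes of the naming rule that were called in all 36 fits, 17 of which left out 1 array. Their promoters, the 250 bases before the start of the gene (RefSeq, GRCm38.p6), are shown because these genes stayed called in every fit. Capitals mark CANNTG, the E-box letters that basic helix-loop-helix factors read, which are the same on both strands.
Dlx2, chr2:71546755-71547004, minus strand: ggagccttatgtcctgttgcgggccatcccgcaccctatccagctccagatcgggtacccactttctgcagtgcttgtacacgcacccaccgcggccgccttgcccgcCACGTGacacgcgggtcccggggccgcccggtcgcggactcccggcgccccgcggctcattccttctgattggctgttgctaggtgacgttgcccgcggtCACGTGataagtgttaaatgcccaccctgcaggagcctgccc
Prrx2, chr2:30845117-30845366, plus strand: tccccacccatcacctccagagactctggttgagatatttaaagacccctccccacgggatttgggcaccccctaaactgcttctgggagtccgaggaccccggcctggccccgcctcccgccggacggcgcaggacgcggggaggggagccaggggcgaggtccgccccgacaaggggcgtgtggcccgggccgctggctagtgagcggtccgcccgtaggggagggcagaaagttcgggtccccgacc
Dct, chr14:118052247-118052496, minus strand: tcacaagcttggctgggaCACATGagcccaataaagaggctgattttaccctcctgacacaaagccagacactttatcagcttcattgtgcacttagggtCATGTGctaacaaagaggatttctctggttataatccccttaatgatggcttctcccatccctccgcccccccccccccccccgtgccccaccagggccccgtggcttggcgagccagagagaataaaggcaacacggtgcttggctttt
The Dlx2 and Dct windows held 2 matches each and the Prrx2 window 0, and none held the homeobox letters TAATTA (searched on both strands, as they read the same on each). Over 27025 promoters of the same length in the table, 66.0% held CANNTG and 4.9% TAATTA. A promoter was listed for 9 of the 13 genes that rose, of which 8 held CANNTG and 0 TAATTA. It was listed for 43 of the 66 genes that fell, of which 26 held CANNTG and 1 TAATTA.

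The homeobox factor Dlx2, which specifies subpallial progenitors and their GABAergic progeny, had the lowest adjusted p of the genes that rose. Its wall difference was between -1.64 and 0.33 (median -0.28) on the 10 late arrays, against -4.37 to -2.46 (median -3.90) on the 7 early arrays. Every late array lay above every early one. The change was 3.13 ± 0.23 (SE; 8.74-fold, adjusted p = 0.000197). It was 4.16 on the slide with both 8-hour arrays, and 2.14 and 2.69 on the slides that held 2, 4 and 7 days. The dorsal level (log2 intensity) was 11.22 to 14.90 (median 13.46) late, against 6.76 to 11.66 (median 10.61) early, a change of 3.71 ± 0.41 (adjusted p = 0.00023). The lateral level had a median of 13.74 late and 14.02 early (0.58 ± 0.27, adjusted p = 0.30). Its wall difference had time means of -3.99, -3.94 and -2.71 at 8 hours, 1 day and 2 days, and of -0.10, -0.17 and -0.99 at 4, 7 and 14 days.

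The other genes whose wall difference rose were of mixed function. The homeobox factor Gsx2, which patterns the lateral ganglionic eminence, lay between -0.35 and 0.11 (median -0.13) on the late arrays and between -2.11 and -0.79 (median -1.22) on the early ones, with no overlap. Its change was 1.18 ± 0.20 (adjusted p = 0.0337), with both channels well above background on 8 late and 6 early arrays. Neither level of Gsx2 passed the test. The dorsal level had a median of 6.94 late and 6.61 early (0.01 ± 0.30, adjusted p = 0.99). The lateral level had 6.97 late and 8.32 early (-1.18 ± 0.37, adjusted p = 0.089). Chaf1a, the large subunit of a chromatin assembly factor that works at replication forks, lay between -0.19 and 4.21 (median 1.18) late and between -5.77 and -0.93 (median -2.50) early. It changed by 3.95 ± 0.59 (adjusted p = 0.022), and there the lateral level was lower late (-3.30 ± 0.62, adjusted p = 0.0065), while the dorsal level had 0.65 ± 0.80 (adjusted p = 0.76). The nuclease Ankle1 (2.53 ± 0.43), the WD-repeat protein Wdr76 (1.60 ± 0.29) and the galectin Lgals1 (1.15 ± 0.20) also had a lower lateral level late, by -2.56, -1.80 and -1.97. Lgals1 had time means of -1.96, -0.32 and 0.44 early, and of 0.64, 0.54 and 0.43 late. Within the slide of the 8-hour arrays it changed by 2.38, and within the other slides with both phases by 0.20 and 0.27. For Ankle1 these changes were 0.05, and 3.32 and 3.55. Nop10, a component of small nucleolar ribonucleoproteins, rose by 1.23 ± 0.20 with a higher dorsal level (0.94, adjusted p = 0.0393). Ube2ql1, a ubiquitin-conjugating enzyme (1.86 ± 0.32), the homeobox gene Rhox11 (1.45 ± 0.27) and the lymphocyte glycoprotein Cd5 (1.30 ± 0.18) rose with neither level past the test. Late and early arrays overlapped for Ankle1, Wdr76, Lgals1, Ube2ql1 and Rhox11, and did not for Chaf1a, Nop10 and Cd5. Of the 17 fits without 1 array, Gsx2 was called in 6 and Wdr76 in 1.

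**Figure D2:**
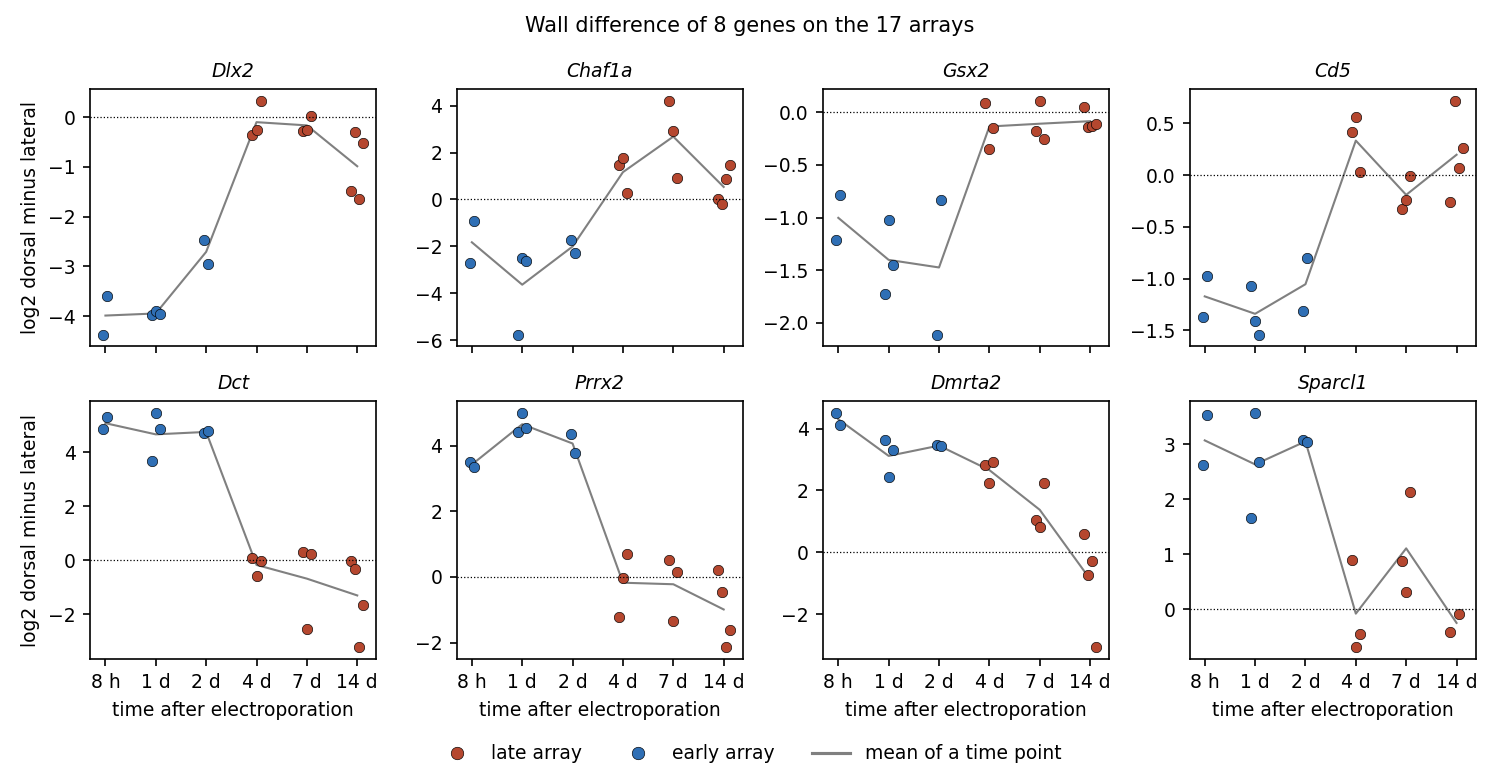
Wall difference (vertical axis, log2 dorsal minus lateral) of 8 genes by time after electroporation (horizontal axis), with 1 point per array, late arrays in red and early arrays in blue, and a line through the mean of each time. Dlx2, Chaf1a, Gsx2 and Cd5 lie lower at 8 hours to 2 days than later, Dct, Prrx2 and Sparcl1 lie higher, and Dmrta2 declines from 4 days on.

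The largest fitted fall among the 66 genes was that of Dct, an enzyme of melanin synthesis that neural progenitors of the cortex also express. Its wall difference was between -3.22 and 0.29 (median -0.17) on the late arrays, against 3.66 to 5.45 (median 4.86) on the early ones, with a wide gap between them. The fitted change was -5.55 ± 0.53 (adjusted p = 0.00128), and -4.97, -4.53 and -6.37 within the 3 slides that held both phases. The dorsal level was 6.13 to 7.57 (median 6.51) late and 12.44 to 14.38 (median 13.19) early. Only 3 of 10 late arrays had Dct well above background in the dorsal sample and 5 in the lateral sample, against 7 of 7 early arrays in each, so most late ratios compare dim spots and the size of the change is uncertain. Prrx2, a paired-related homeobox factor, was well above background in both walls on all arrays. It lay between -2.14 and 0.70 (median -0.23) late and between 3.36 and 4.99 (median 4.34) early, without overlap. It changed by -4.51 ± 0.40 (22.8-fold, adjusted p = 0.000848), and by -2.99, -4.69 and -4.47 within the 3 slides. Its dorsal level fell by 4.33 (adjusted p = 3.83e-05), while the lateral level had a change of 0.18 ± 0.39 (adjusted p = 0.91).

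Further genes fell with a lower dorsal level late. The urea transporter Slc14a1 lay between -2.29 and 2.41 (median -0.10) late and between 3.36 and 4.63 (median 3.82) early, without overlap, and changed by -4.07 ± 0.58 (adjusted p = 0.0207). Its dorsal level changed by -3.77 ± 0.45, and was well above background on 6 of 10 late and 7 of 7 early arrays. At 14 days the dorsal level was 10.02 to 11.09, against 10.06 to 13.75 early. The lateral level of Slc14a1 was 10.17 to 12.54 at 14 days, against 6.48 to 9.24 early. The chemokine Ccl19 changed by -3.69 ± 0.56 (dorsal level -2.97), the synaptic scaffold Tanc1 by -3.07 ± 0.56 (-3.53), and the elongation factor Tcea3 by -3.06 ± 0.47 (-2.33). The potassium-chloride cotransporter Slc12a4, with 6 early values, changed by -2.71 ± 0.44 (-3.22), but by 0.02 within the slide of the 8-hour arrays. The dorsal level of Tanc1 was well above background on 5 of 10 late arrays, so its fitted change, like that of Slc14a1, rests partly on dim spots. These 4 overlapped between the phases, by 1 or more arrays. Tcea3 was at 4.01 and 4.06 at 8 hours and 2 days but at 0.23 at 1 day. Sparcl1, a matrix protein secreted by astrocytes, was measured on 8 late arrays, at -0.69 to 2.13 (median 0.12), against 1.65 to 3.56 (median 3.03) on 7 early ones. It changed by -2.66 ± 0.40 (adjusted p = 0.0333), with a dorsal level lower by 1.89 on the log2 scale and the lateral level at 0.77 ± 0.47. On 14 days replicates 1 and 3 its dorsal level was 15.02 and 16.28, against 15.35 to 16.50 early. Its lateral level there was 15.43 and 16.36, against 11.86 to 13.70 early.

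Another group fell with a higher lateral level late. Pcp4, a regulator of calmodulin, lay between -2.23 and 1.00 (median -0.64) late and between 0.07 and 5.87 (median 4.27) early, with overlap. It changed by -4.10 ± 0.51 (adjusted p = 0.00779). Its time means were 0.67 at 8 hours, but 4.26 and 5.32 at 1 and 2 days. Within the slide of the 8-hour arrays it changed by -1.60, and within the other slides with both phases by -5.67 and -6.48. Its lateral level was 11.59 to 16.10 (median 13.48) late and 7.93 to 11.91 (median 9.94) early (3.59 ± 0.47), whereas the dorsal level had -0.51 ± 0.57. The semaphorin receptor Plxna4 changed by -3.28 ± 0.55 (lateral level 4.84 ± 0.22, adjusted p = 1.87e-07). Its time means were 0.37 at 8 hours, and 3.69 and 2.48 at 1 and 2 days. Snap91, a clathrin assembly protein of synapses, changed by -3.06 ± 0.41 (3.95), and B3gat1, which makes the HNK-1 carbohydrate of neural cells, by -3.08 ± 0.52 (3.19). The Golgi GTPase Rab6b changed by -2.91 ± 0.47 (3.07), carbonic anhydrase Car2 by -3.63 ± 0.56 (2.34) and the RNA-binding protein Csdc2, with 8 late values, by -3.44 ± 0.52 (2.11). The late median of Csdc2 was -0.24, with time means of -0.20 and -0.14 at 4 and 7 days. Its mean of -4.41 at 14 days came from replicates 1 and 2 only (-5.34 and -3.49). B3gat1 and Rab6b did not overlap between late and early arrays, and the other 5 did.

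Over all 66 genes that fell, the dorsal level alone passed the test in 33, lower late in each. In 17 the lateral level alone passed, higher late in each. Both levels passed in 3 genes, in the same direction, and in 13 neither did. Those 3, named after their values were seen, were Cd109 and Pter, lower late in both walls, and Gng3, higher late in both. Of the 13 genes that rose, the dorsal level alone passed in 2, the lateral level alone in 6, and neither in 5. Among all genes tested the dorsal level was higher late in 380 (1.44%) and lower in 936 (3.54%), and the lateral level higher in 863 (3.27%) and lower in 744 (2.82%). Both channels were well above background on at least 3 late and 3 early arrays in only 58 of the 79 genes. In 6 of the 79 genes, named for this reason only, at least 1 wall was above background on none of the arrays of a phase, and their changes are not given: Cyp4b1, Gpat3, Foxf1, Cpn1, Minar1 and 1 probe without a gene name.

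**Figure D3:**
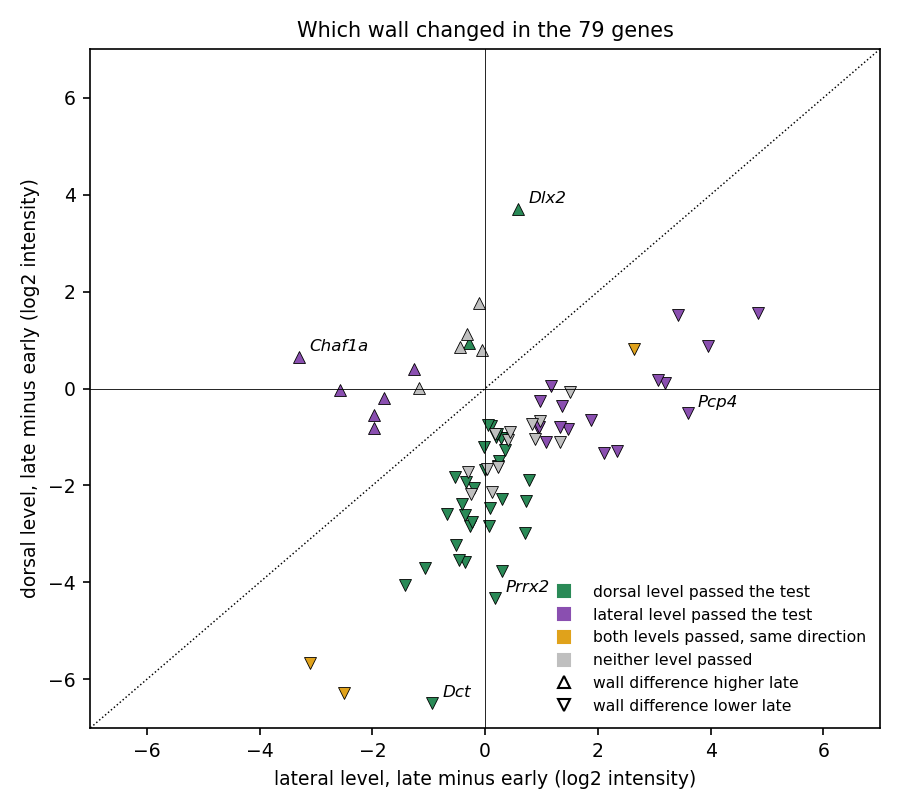
Change of the dorsal level (vertical axis, log2 intensity, late minus early) against that of the lateral level (horizontal axis, same unit) for the 79 genes, coloured by which level passed the test, with upward triangles for a wall difference that rose and downward ones for one that fell. Most genes that fell lie along the lower vertical axis (a lower dorsal level) or along the right horizontal axis (a higher lateral level).

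For most of these genes the change lay between 2 and 4 days. The median wall difference of the 66 genes was 1.55, 1.99 and 2.10 at 8 hours, 1 day and 2 days, and -0.06, -0.10 and -0.19 at 4, 7 and 14 days. From 2 to 4 days 65 of the 66 went down (median step -2.16), and for 38 it was the largest of the 5 steps. The median of the 13 genes was -1.02, -1.40 and -1.47 at the 3 early times and 0.21, 0.25 and -0.04 at the late ones, and 13 of 13 went up from 2 to 4 days (median step 1.69). The genes were chosen for a late to early contrast, so the side of this step is fixed by the choice. For 58 of the 66 and 11 of the 13 all 3 late time means lay beyond all 3 early ones. Of the 79 genes 73 changed in the same direction within each of the 3 slides that held both phases. With the slide as a fixed block 75 had an unadjusted p under 0.05 in the same direction and 10 were called. The counts for time means and slides come from the arrays that chose the genes, so they give no independent support.

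**Figure D4:**
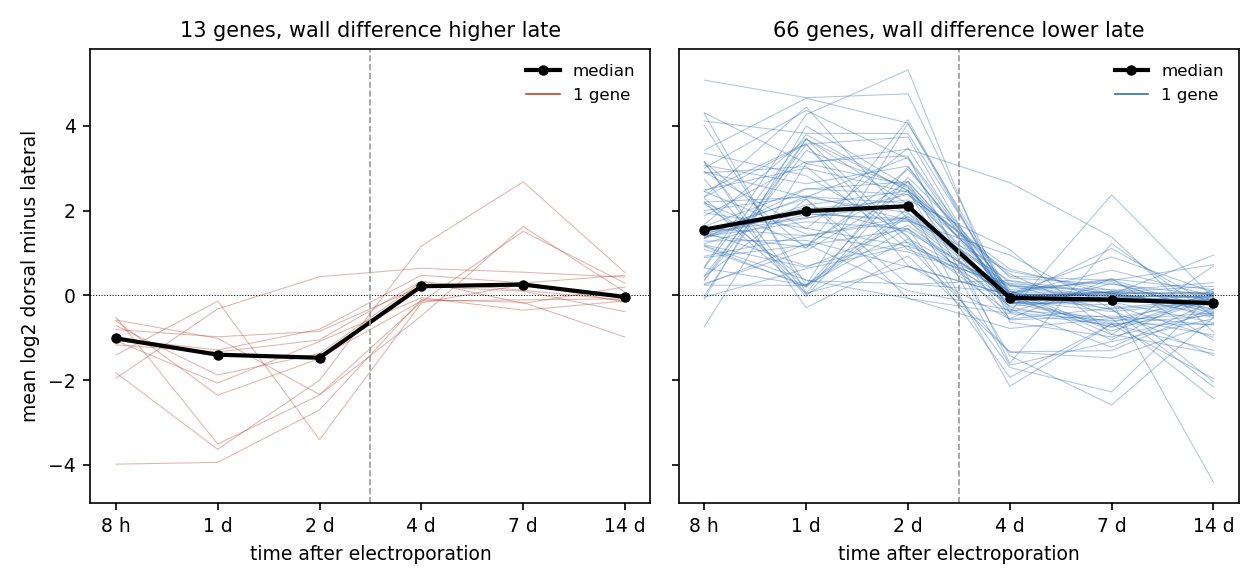
Mean wall difference (vertical axis, log2 dorsal minus lateral) at each time after electroporation (horizontal axis) for the 13 genes that rose (left) and the 66 that fell (right), with a thin line per gene, a thick line for the median and a dashed line between the early and late times. The medians sit near 0 from 4 days on.

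Early, 8 of 16 pallial factors were called higher in the dorsal samples and 0 lower, against 1.97% and 1.51% of all genes. Late, 0 were called. For the change, of 16 tested, 1 passed with a lower wall difference late (Dmrta2) and 0 with a higher one. At an unadjusted p under 0.05, 6 were lower and 0 higher, against 6.78% and 4.87% of all genes tested. The median change was -1.35, against 0.00 over all genes tested. The list median per array was -0.09 to 3.28 (median 0.26) late and 0.45 to 3.32 (median 1.82) early, and the late value of 3.28 came from 4 days replicate 1. Dmrta2, a patterning factor of the cortex, lay between -3.06 and 2.91 (median 0.93) late and between 2.42 and 4.50 (median 3.47) early, and changed by -2.57 ± 0.45 (adjusted p = 0.0375). Its time means were 4.30, 3.12, 3.45, 2.66, 1.38 and -0.87 from 8 hours to 14 days, so that it still stood at 2.66 at 4 days. It was called in 4 of 17 fits without 1 array. The AP-2 transcription factor Tfap2c had a change of -2.65 ± 0.95 (adjusted p = 0.309), with means of 1.90 late and 4.55 early. In the glutamatergic cascade of transcription factors, Eomes had a change of -2.21 (adjusted p = 0.25), Tbr1 -2.34 (0.38) and Neurog1 0.43 (0.73). The dorsal level was lower late in 5 members (Emx2, Lhx2, Tfap2c, Dmrta2 and Eomes) and the lateral level higher in 1, the factor Pax6 (1.58). Among all genes tested the dorsal level was lower in 3.54% and the lateral level higher in 3.27%.

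Early, 3 of the subpallial factors were called lower in the dorsal samples and 0 higher, against 1.51% and 1.97% of all genes. For the change, of 17 tested, 2 passed with a higher wall difference late, Dlx2 and Gsx2, and 0 with a lower one. At an unadjusted p under 0.05, 7 were higher and 1 lower, against 4.87% and 6.78% of all genes tested. The median change was 0.64. The list median per array was -0.19 to 0.03 (median -0.08) late and -1.55 to -0.05 (median -0.35) early. Dlx1, the neighbour of Dlx2 on chromosome 2, had a change of 2.68 ± 0.56 (adjusted p = 0.0772), with late values of -2.02 to 0.39 (median -0.61) and early ones of -4.78 to -0.37 (median -3.73). Its dorsal level rose by 4.09 (adjusted p = 0.0012). The level of Dlx5, which acts in differentiating interneurons, rose by 4.56 in the dorsal and 3.40 in the lateral samples, and that of the zinc-finger factor Sp8 by 3.79 and 4.14. Their wall differences had changes of 1.15 (adjusted p = 0.60) and -0.36 (0.84). The progenitor factor Gsx1 had a lower lateral level late (-1.89), with a change of the wall difference of 1.78 (adjusted p = 0.22). Pbx3 had the opposite sign, at -2.62 (adjusted p = 0.10), with a lateral level higher by 4.46.

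Early, 6 radial glia and 5 astrocyte genes were called higher in the dorsal samples and 0 lower, against 1.97% and 1.51% of all genes. For the change, of 16 radial glia and stem cell genes 2 passed, both lower late, with a median change of -0.73. At an unadjusted p under 0.05, 6 were lower and 0 higher, against 6.78% and 4.87% of all genes tested. Hopx, a homeodomain protein of stem cells, lay between -0.24 and 0.21 (median -0.02) late and between 0.20 and 2.75 (median 1.39) early. It changed by -1.60 ± 0.29 (adjusted p = 0.0428), and both channels were well above background on 1 late and 5 early arrays. Prom1, the CD133 antigen, lay between -1.38 and 0.47 (median -0.14) late and between 0.30 and 1.76 (median 1.21) early, and changed by -1.42 ± 0.25 (adjusted p = 0.0393). With 1 array left out, Hopx was called in 3 of 17 fits. The matrix glycoprotein Tnc had -2.53 ± 0.83 (adjusted p = 0.266). The dorsal level was lower late in 8 of the 16 genes and the lateral level in 3, against 3.54% and 2.82% of all genes tested. Of 16 astrocyte genes 1 passed (Sparcl1), with a median change of -0.58. Against the same 6.78% and 4.87%, 5 were lower and 0 higher at an unadjusted p under 0.05. The glycolytic enzyme Aldoc had -2.01 ± 0.54 (adjusted p = 0.195). Astrocyte levels were lower late in 7 genes in the dorsal and in 5 in the lateral samples, and higher in 0 and 1.

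Proliferation genes had a median wall difference of -1.42 early, with 4 called lower in the dorsal samples (1.51% of all genes), and of -0.07 late. Of 20 tested 0 passed the test of the change, and the median change was 1.40. At an unadjusted p under 0.05, 13 were higher and 0 lower, against 4.87% and 6.78% of all genes tested. The list median per array was -1.73 to 0.70 (median 0.06) late and -2.39 to -0.27 (median -1.31) early, the value of -1.73 being that of 4 days replicate 2. The mitotic checkpoint kinase Bub1 had 2.00 (adjusted p = 0.09), the replication helicase subunits Mcm2 and Mcm3 2.45 ± 0.73 and 2.20 (0.232 and 0.20), and the motor Kif11 2.36 ± 1.01 (0.389). The lateral level was lower late in 9 of the 20 genes and the dorsal level in 0, and neither was higher in any. Over all genes tested the lateral level was lower in 2.82% and the dorsal level in 3.54%. Of 9 transit amplifying genes 0 passed, with a median change of 1.19. Gadd45g, a growth arrest gene, had 1.97 ± 0.59 (adjusted p = 0.237) and the neuroendocrine factor Insm1 1.70 ± 0.90 (0.49).

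**Figure D5:**
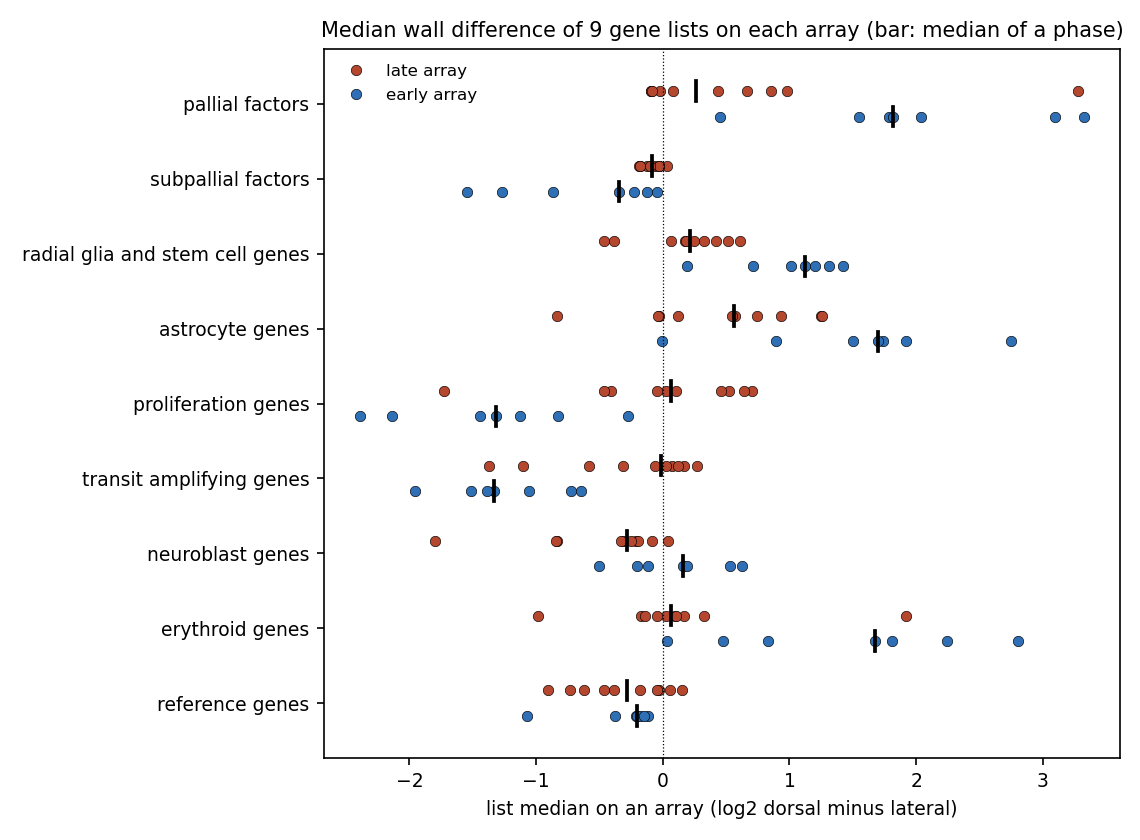
Median wall difference of 9 gene lists on each array (horizontal axis, log2 dorsal minus lateral), with late arrays in red above early arrays in blue and a black bar at the median of a phase. Pallial, radial glia, astrocyte and erythroid genes have early medians above 0 and late medians closer to 0. Proliferation and transit amplifying genes have early medians below 0. In all 9 lists the late and early arrays overlap.

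For the change of the wall difference, of 14 neuroblast genes tested 0 passed, with a median change of -0.66. At an unadjusted p under 0.05, against 4.87% and 6.78% of all genes tested, 1 neuroblast gene was higher and 6 were lower. Their level was higher late in 6 genes in the dorsal and in 11 in the lateral samples, and lower in 0. Over all genes tested the dorsal level was higher in 1.44% and the lateral level in 3.27%. Igfbpl1, an insulin-like growth factor binding protein of neuroblasts, had -1.94 ± 0.37 (adjusted p = 0.0537), and the polysialyltransferase St8sia2 -2.35 ± 0.82 (0.294). Of 14 GABAergic interneuron genes 0 passed, with 0 at an unadjusted p under 0.05, while 6 levels were higher late in each wall. The GABA-synthesising enzyme Gad1 was higher late by 5.38 in the dorsal and 4.35 in the lateral samples. Sst had a change of the wall difference of 1.40 ± 1.20 (adjusted p = 0.699) and Calb2 of 1.05 ± 1.26 (0.793). The list median was 0.13 and turned negative in 3 of 36 fits: with median centring (-0.16), without the 2-day arrays, and without 8 hours replicate 2. Of 8 glutamatergic neuron genes 0 passed (median -0.27), with the growth factor Nrn1 at -2.63 ± 1.04 (adjusted p = 0.35) and the transporter Slc17a6 at -1.82 ± 1.02 (0.521). Of 5 Zic factors 0 passed (median -0.72), with Zic2 at -1.56 ± 0.88 (adjusted p = 0.522) and Zic5 at -0.72 ± 0.31 (0.387). The dopaminergic (7 tested), mature neuron (12), oligodendrocyte (14) and ependymal (11) lists had 0 calls and medians of 0.18, -0.11, -0.24 and 0.48, which changed sign in 7, 3, 7 and 6 of 36 fits. In these lists Nr4a2 had -2.23 ± 1.05, Slc18a2 0.86 ± 0.75, Syp -1.82 ± 1.29, Syt1 -1.25 ± 0.49, Olig1 3.17 ± 1.46, Olig2 2.48 ± 0.93, Dnah11 1.98 ± 0.71 and Rsph1 -1.17 ± 0.65, with adjusted p-values of 0.306 to 0.702.

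No member of a signalling list passed, where 0.299% of all genes did, so a count of 0 in lists of this size does not set them apart. Hedgehog genes had a median of -0.19 (11 tested), with the effector Gli3 at -2.62 ± 0.76 and the receptor Ptch1 at 1.83 ± 0.53 (adjusted p = 0.212 each). Wnt genes had a median of -0.15 (16), with the ligand Wnt7a at -2.09 ± 0.72 (0.289) and the modulator Dkk3 at -2.07 ± 0.94 (0.425). BMP genes had a median of -0.28 (14), with the ligands Bmp7 at -2.05 ± 0.62 (0.237) and Bmp6 at -1.02 ± 0.60 (0.543). Notch genes had a median of 0.22 (13), with the glycosyltransferase Mfng at 1.39 ± 0.45 (0.266) and the receptor Notch2 at -1.18 ± 0.49 (0.376). The hedgehog, Wnt and Notch medians changed sign in 3, 4 and 5 of 36 fits, and the BMP median in 0. Among immediate early genes (median 0.26, of opposite sign without the 4-day arrays) Egr1 had 1.41 ± 0.35 (adjusted p = 0.138) and Egr2 1.24 ± 0.71 (0.528).

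Interferon response genes were lower late in level in both walls. Of 14 of them 0 passed for the wall difference (median -0.60), while the level was lower late in 14 in the dorsal and in 13 in the lateral samples, with median changes of -5.36 and -4.33. Among all genes tested the dorsal level was lower late in 3.54% and the lateral level in 2.82%. The chemokine Cxcl10 had a change of the wall difference of -2.56 ± 1.22 (adjusted p = 0.448) and the GTPase Gbp2 -1.84 ± 0.84 (0.421). Of 13 injury and stress genes 0 passed (median -0.28). Against the same 3.54% and 2.82%, 5 levels were lower late in the dorsal and 6 in the lateral samples. The protease inhibitor Timp1 had -2.39 ± 0.57 (adjusted p = 0.112) and the heat shock protein Hspa1b 2.14 ± 0.88 (0.369).

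Markers of other cell types were also detected. Erythroid genes had a median change of -1.19 (8 tested, 0 passed). At an unadjusted p under 0.05, against 6.78% and 4.87% of all genes tested, 4 erythroid genes were lower and 0 higher. Their summed intensity was 1274 to 448687 late and 119421 to 1409250 early in the dorsal samples, and 3332 to 153754 late and 3490 to 170811 early in the lateral samples. The globin Hba-a2 had -5.21 ± 1.59 (adjusted p = 0.251). Of 5 melanocyte genes tested (median -0.74) only Dct passed: Mlana had -0.74 (adjusted p = 0.48), Mitf 0.58 (0.35) and Pmel -2.09 (0.49), and Tyrp1 was well above background on 0 late and 2 early dorsal samples. Their summed intensity, Dct included, was 657 to 3121 late and 6881 to 30943 early in the dorsal samples, and 678 to 7110 late and 784 to 3862 early in the lateral samples. Medians were 0.40 for microglia (15), 0.18 for neutrophil (8), 0.35 for endothelial and mural (15), -0.44 for meningeal (11), 0.49 for choroid plexus (9) and -0.63 for sex-linked genes (5), with 0 calls in each. Their leading members were Tmem119 (1.60 ± 0.83), Cxcr2 (1.02 ± 0.38), Cldn5 (3.01 ± 1.14), Col1a2 (-3.48 ± 1.09), Folr1 (1.06 ± 0.92) and Xist (-1.58 ± 1.13). The summed microglia intensity was 6700 to 506899 late and 32452 to 495859 early in the dorsal samples, and 9317 to 509491 late and 5024 to 475251 early in the lateral samples. Reference genes had a median of 0.01 (10). The part of these cells in the changes of the other lists was not tested.

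The size of the wall difference over all genes was also set against time. The interquartile range of the log2 ratio was 0.606 to 0.999 (median 0.739) on the late arrays and 0.770 to 1.31 (median 0.947) on the early ones. The means were 0.742 ± 0.115 (SD, n = 10) late and 0.984 ± 0.189 (SD, n = 7) early, a difference of -0.242 (two-sided exact permutation test over 19448 splits, p = 0.00381), with overlap. Within slides, with 1 or 2 arrays each, the late and early means were 0.623 and 0.858, 0.709 and 1.04, and 0.895 and 0.832, so that 1 of 3 slides had the opposite order. With median centring in place of loess the difference was 0.216 (exact p = 0.258). The dorsal minus the lateral share of probes well above background was -6.12 ± 6.45 percentage points late (SD, n = 10) and 0.80 ± 4.15 early (SD, n = 7), a difference of -6.92 (exact permutation p = 0.0245). Its exact p was 0.0522 without 8 hours replicate 1 and 0.0608 without 2 days replicate 1. Within the 3 slides the late and early means were -1.89 and 1.98, -1.77 and 7.30, and -9.88 and -2.70 points. The part of detection in the falls of the wall difference was not tested.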

How the data were processed

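The arrays were Agilent mouse arrays of 2 colours. Per the labels' protocols, bead-purified mRNA was turned into cDNA, amplified by global PCR, and labelled from 200 ng. The labels name the dorsal RNA polyA and the lateral RNA total. Per the file headers, spot values are intensity on a linear scale, which the authors obtained with version 10.5.1.1 or version 10.7.3.1 of Agilent's Feature Extraction. The deposited files' log10 ratio of red over green was set against the deposited value table, which was found to hold log2 Cy3 over Cy5 (r of -0.90 to -0.97 across probes of 1 array, not independent replicates). How it was normalized is not stated. The scanner's processed signals and this table served as alternatives.

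Mean signals were corrected with normexp (offset 50, which pulls ratios of dim spots towards 0), normalized by loess within arrays and, for levels, Aquantile between arrays, in limma 3.58.1 under R 4.3.3 with data.table (1.17.8). Outlier spots were left out. Of 41174 probes, the 36785 detected in any channel of 2 or more arrays entered the tests. The brightest probe stood for a gene, giving 26458 genes, 26414 of which had the values the contrast needs. Through a RefSeq table of GRCm38.p6, 26876 probes were named by accession, 2894 by symbol and 347 by synonym, and 11057 kept the file's name.

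A single model (lmFit, eBayes) gave each time its own mean over the 17 arrays. The contrast was the mean of 4, 7 and 14 days minus that of 8 hours, 1 day and 2 days. Adjusted p-values are limma's (two-sided), Benjamini-Hochberg over every gene tested, with 0.05 as the limit. Single values per array were tested by exact permutation. The method was tested on simulated data.

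Named genes were the 15 largest rises and 15 largest falls among called genes with a symbol and both channels well above background on at least 3 late and 3 early arrays, every called list member, and the 2 members with the largest change of each lineage list (1 for other cells). Fewer than 15 rises qualified. Other list members given with values, and the called genes outside the rule, were named after their values were seen. Members, lists and tests were chosen with earlier results of these data known, so they give no independent support. Replicate numbers did not pair the arrays. Alternatives were the signal, normalization, value table, filters, probes, weights, model, slide, software version, replicate number, arrays and times; the fixed slide block and list medians under each setting were chosen after seeing the data. Matplotlib 3.10.9 (Python 3.11.15) drew the figures.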

Additional observations from a re-analysis of the deposited data

Results flagged for a closer look

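The wall difference of 79 genes differed between the late and early times by the test of the change itself. In 19 of 120 groups of arrays tested, the highest or lowest array lay far from the others by Dixon's criterion, which chance meets in about 1 of 20 groups. Chaf1a was at -5.77 on 1 day replicate 1, against -2.73 to -0.93 on the other early arrays. Dct was at 3.66 on the same array, against 4.72 to 5.45. Among late arrays B3gat1 was at -4.30 on 4 days replicate 1, Tcea3 at -3.34 on 7 days replicate 1 and Rab6b at -3.62 on 14 days replicate 1. The interquartile range was 0.999 on 4 days replicate 2.

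The list medians of 4 days replicate 1 stood apart for pallial factors (3.28), glutamatergic neuron genes (1.54) and dopaminergic genes (0.834). The median of proliferation genes was -1.73 on 4 days replicate 2 and that of GABAergic interneuron genes -1.35 on 2 days replicate 1. At 7 days, choroid plexus genes were at 4.32 on replicate 2 and erythroid genes at 1.92 on replicate 1. At 14 days, oligodendrocyte genes were at 3.91 on replicate 1 and neuroblast genes at -1.80 on replicate 2. On 14 days replicate 3, interferon response genes were at 2.78, endothelial and mural genes at -0.480 and meningeal genes at -3.71. Reference genes were at -1.07 on 1 day replicate 2.

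Among the control probes, E1A_r60_3 had a median net dorsal signal of 1035 on the early arrays. Its log2 ratio was -0.07 to 0.47 (median 0.14) late and 0.87 to 3.71 (median 2.79) early, without overlap.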

How the results depend on the processing

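The 28 called genes of the naming rule kept the sign of their change in all 36 fits. Dlx2, Prrx2 and Dct stayed past the threshold in each of them. With 1 array left out, 249 of 476 such calls held, from 4 of 28 genes without 8 hours replicate 1 and 5 without 2 days replicate 1 to 26 without 1 day replicate 3.

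The count of 79 changed genes was 10 with processed signals, 28 with median centring, 6 with the value table, 41 with the stricter filter, 212 with array weights, 48 with 2 groups of arrays, 119 with the slide as a random block, 28 with the software version as a covariate, 134 without 1 day replicate 1 and 14 days replicate 2, and 10 with the slide as a fixed block. Without the arrays of a time it was 30 (8 hours), 50 (2 days), 18 (4 days), 25 (7 days) and 16 (14 days). With 1 array left out it was 16 to 138: 20, 25 and 40 without 4 days replicates 1, 2 and 3, 21, 38 and 32 without those of 7 days, 23 without 2 days replicate 1, and 47 without 14 days replicate 2 or 3. With a replicate block it was 33, of which 23 were shared; replicate numbers did not pair the arrays (mean correlation of deviations 0.00404 in 36 pairs of the same number).

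The early count of 920 (520 higher, 400 lower) was 424 with processed signals, 1663 with median centring (364 higher, 1299 lower), 346 with the value table, 571 with the stricter filter, 2068 with array weights, 1873 with the random slide block, 593 with the software version, 270 with the replicate block and 1780 without both arrays. Without the arrays of a time it was 383 (8 hours), 434 (1 day), 305 (2 days) and 541 (7 days), and 271 to 1480 with 1 array left out. The late count of 0 was 6 with processed signals, 4922 with median centring, 3 with the value table, 10 with array weights, 13 with 2 groups, 96 with the random slide block, 34 with the replicate block, 1 without the 4-day and 7 without the 14-day arrays, and 0 to 6 with 1 array left out. The dorsal count was 862 with processed signals and 4524 with array weights (655 to 1556 with 1 array left out), and the lateral count 3811 with array weights (957 to 2415).

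The difference in interquartile range reversed with median centring (0.216), and was -0.00773 as a standard deviation and -0.167 in the value table (exact permutation p = 0.963 and 0.377). It was -0.278 to -0.188 with 1 array left out. The difference in detection was -7.81 to -5.72, past the threshold except without 8 hours replicate 1 or 2 days replicate 1. The causes were not tested. The number of arrays limits the precision, and the offset pulls ratios of dim spots towards 0. Late Dct was at -2.56 on 7 days replicate 2, and at -3.22 and -1.66 on 14 days replicates 3 and 4. On the other late arrays it lay between -0.59 and 0.29.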
